A study of Mus musculus with 6 samples.

Results

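Capillary endothelium of uninjured mouse muscle was taken as the barcodes of both day 0 libraries that carried endothelial transcripts together with Gpihbp1 and lacked venous, arterial and leukocyte transcripts. A barcode stands for 1 droplet, and a UMI for 1 captured RNA molecule. Members had at least 500 UMIs, at least 200 detected genes and at most 10% mitochondrial UMIs. They also had at least 3 UMIs of Pecam1, Cdh5 and Kdr together, at least 1 UMI of Gpihbp1, at most 1 UMI of Vwf, Ackr1, Selp and Sele together, and 0 UMIs of Sema3g, Gja5, Stmn2 and Ptprc. These conditions held for 2301 barcodes at ZT16 and 2040 at ZT4, or 4341 of the 24155 day 0 barcodes that passed the quality limits and of 64032 in the series. ZT is zeitgeber time, the hour of the light-dark cycle. The libraries came from wild-type mice, and each held mononucleated cells of the tibialis anterior muscles of both hindlimbs, sorted to remove dead cells stained by propidium iodide and captured in droplets with 10x 3′ v3.1 chemistry. Muscles were uninjured on day 0 or were taken on day 1 or day 3 after injection of cardiotoxin, a snake venom toxin that lyses muscle fibres, at ZT16 and at ZT4 each time. Each of these groups was 1 library, so no difference has a replicate check and no test across animals was possible. The sources used here do not give the number of mice behind a library.

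Muscle capillaries wrap each fibre, and their endothelium passes oxygen, water, glucose and fatty acids from blood to fibre. The protein GPIHBP1 captures lipoprotein lipase beneath the endothelium and carries it to the vessel lumen, where the lipase frees fatty acids from circulating lipoproteins, and CD36 and the fatty acid binding proteins move those fatty acids inward. Endothelial cells also hold a circadian clock, in which ARNTL and its partner CLOCK or NPAS2 switch on the Period and Cryptochrome genes, whose products then repress them, while the REV-ERB receptors repress Arntl.

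The files held 13361 to 14079 barcodes in the day 0 libraries and 8626 to 14079 in the 6 libraries of the series, with 72747703 to 132221721 UMIs per library. Capillary barcodes held 9620665 UMIs at ZT16 and 7743456 at ZT4, with a median of 3485 and 3049 UMIs, 1592 and 1498.5 genes and 2.02% and 2.25% mitochondrial UMIs per barcode. Both day 0 libraries shared 54 barcode sequences, and 4 of these met the capillary rule in both, while the other pairs of libraries shared 21 to 65. Levels are given as CPM, the UMIs of a gene scaled to 1000000 UMIs of the class of barcodes named, summed over its barcodes in a library. Reads came from the 3′ end of transcripts and have no length scale, so levels are compared within a gene and not between genes. Intervals are exact 95% intervals (Poisson for a level, conditional binomial for a ratio, Clopper-Pearson for a share) and cover counting error only, not the spread between animals.

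Transcripts of other cell types were present in the capillary barcodes. The 12 mature muscle genes, all detected, summed to 20609 CPM in capillary barcodes at ZT16 and 17542 at ZT4, against 47983 and 35824 in barcodes with none of the Pecam1, Cdh5 and Kdr UMIs, called barcodes without endothelial genes below (8195 at ZT16 and 8114 at ZT4). At least 3 such UMIs were found in 99.9% of capillary barcodes at ZT16 and 99.7% at ZT4. The 8 fibro-adipogenic genes summed to 3986 and 6234 CPM in the same order, the 9 mural genes to 1891 and 1925, the 8 macrophage genes to 106 and 164, the 7 lymphatic genes to 122 and 138, the 6 muscle stem cell genes to 164 and 115, and the 4 tenocyte genes to 49.997 and 106. Neutrophil, lymphocyte and glial genes summed to at most 26.0 CPM in either library. The 5 erythroid genes summed to 2569 and 1811 CPM, with 99.5% and 98.0% of those UMIs in the 1% of capillary barcodes that held most of them. The same share was 26.9% and 24.6% for the mature muscle genes and 53.3% and 41.6% for the fibro-adipogenic genes. It was 74.0% and 73.8% for the macrophage genes and 60.4% and 67.1% for the lymphatic genes, lists with few UMIs. These transcripts were thus not spread evenly over the capillary barcodes.

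The gate chose its members by measured values, so its own genes describe them and show nothing more. Members held a median of 11 Gpihbp1 UMIs at ZT16 (range 1 to 51) and 6 at ZT4 (range 1 to 48). Their summed Pecam1, Cdh5 and Kdr UMIs had a median of 10 at ZT16 (range 3 to 50) and 11 at ZT4 (range 3 to 92). At the edge of the rule, 83 members at ZT16 and 161 at ZT4 had a single Gpihbp1 UMI, and 80 and 129 barcodes stayed outside only because they had none. Aqp1, the water channel of capillary endothelium, stood at 4070 and 2783 CPM in the members with that single UMI, against 1289 and 1636 in the barcodes just outside. The capillary genes Rgcc and Cd300lg ran the other way at ZT16, at 545 CPM inside against 650 outside and at 355 against 388. At ZT4 they were higher inside, at 974 against 415 and at 399 against 304. A summed endothelial count of exactly 3 was held by 177 members at ZT16 and 114 at ZT4, while 219 and 113 barcodes missed the rule with a sum of 2. Aqp1 was at 3223 and 2169 CPM just inside this limit, against 2759 and 1777 just outside. The arterial condition alone kept out 576 barcodes at ZT16 and 407 at ZT4, of which 243 and 168 had a single arterial UMI.

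Markers that the rule did not use were read against barcodes without endothelial genes, a check on endothelial identity more than on the capillary class. Venous and arterial barcodes, defined below, are the closer comparison. Aqp1 was found at 5423 CPM in capillary barcodes at ZT16 and 3674 at ZT4, against 25.2 and 13.3 in barcodes without endothelial genes. Timp4, an inhibitor of matrix metalloproteinases, stood at 2279 and 824 CPM against 10.8 and 3.08. Fabp4, a fatty acid binding protein, reached 15503 and 19158 CPM against 136 and 98.5. Over venous barcodes its log2 ratio was only 0.23 at ZT16 and 0.34 at ZT4. All 16 capillary genes of the fixed list were detected in both libraries, and they summed to 33451 CPM at ZT16 and 33741 at ZT4 in capillary barcodes, against 787 and 717 in barcodes without endothelial genes. The fixed list left out Gpihbp1 and Kdr, which the rule had used.

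Capillary barcodes made up 18.6% of the kept barcodes at ZT16 (interval 17.9 to 19.3) and 17.3% at ZT4 (16.7 to 18.05), a log2 ratio of 0.10 (0.01 to 0.18). Among endothelial barcodes, defined by the same endothelial sum and no Ptprc, they were 71.5% of 3219 at ZT16 and 71.8% of 2842 at ZT4, a log2 ratio of -0.01 (-0.09 to 0.08). With every barcode thinned to 1000 UMIs before the rule was applied, the capillary share was 10.7% at ZT16 and 11.4% at ZT4. The direction of this small difference turned after thinning.

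Collection time was the only contrast within uninjured muscle. Of 11920 genes measured in capillary barcodes, those with at least 30 UMIs in both libraries together, 491 (4.12%) were at least 1.5-fold higher at ZT16 than at ZT4 and 1432 (12%) were at least 1.5-fold lower. The counting interval of the log2 ratio lay above 0 for 1446 genes and below 0 for 3277. The median log2 ratio of all measured genes was -0.12, so a gene with no difference in these totals sits slightly above the bulk. With ratios scaled to the median gene instead of the total, 688 genes were higher and 1068 lower, so the higher genes made up 39.2% of these genes against 25.5% with the total. In the text below, higher and lower mean at least 1.5-fold between the libraries, and each list is set beside these shares. The 24 genes named by size of difference, 12 each way, included 5 clock genes, Lpl, Timp4 and Cldn5.

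**Figure D1:**
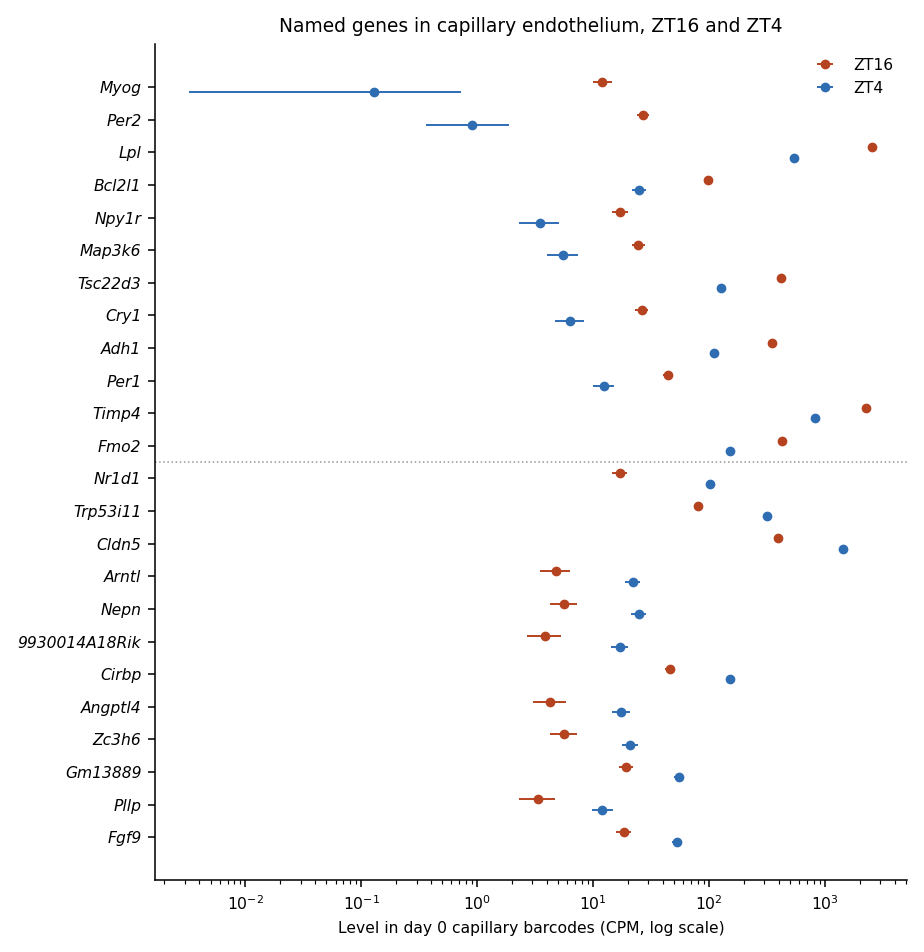
Levels of the 24 named genes in day 0 capillary barcodes (log axis, CPM, bars are exact 95% Poisson intervals), with ZT16 drawn above ZT4 in each row. The 12 genes above the dotted line were higher at ZT16, with Myog at 12.1 against 0.129 CPM at the top, Per2 at 27.1 against 0.904 next and Fmo2 at 431 against 151 last, and the 12 below it were lower, including Cldn5 at 391 against 1425.

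The clock genes of capillary endothelium differed widely between the libraries. Per2, a Period repressor (chr1:91415982-91459324, minus strand, GRCm38), had 261 UMIs at ZT16 and 7 at ZT4, or 27.1 and 0.904 CPM, a log2 ratio of 4.81 (3.84 to 6.24). Nr1d1, which encodes the repressor REV-ERBα (chr11:98767932-98775333, minus strand), stood at 16.9 CPM at ZT16 and 102 at ZT4, a log2 ratio of -2.58 (-2.84 to -2.34). Arntl, the activator also called Bmal1 (chr7:113207465-113314126, plus strand), was at 4.78 and 22.0 CPM, a log2 ratio of -2.19 (-2.70 to -1.72). The Period and Arntl genes thus stood on opposite sides in these libraries. These directions were not particular to capillary barcodes. In barcodes without endothelial genes the log2 ratios were 4.22 for Per2, -1.08 for Nr1d1 and -2.95 for Arntl. Per2 was at 36.3 CPM there at ZT16.

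In the list of Period and Cryptochrome genes, which also holds Ciart, 5 of 6 measured genes were higher at ZT16 and none was lower. The list's median log2 ratio was 1.46 beside -0.12 for all genes. Per1 stood at 44.0 CPM at ZT16 and 12.4 at ZT4 (log2 1.82, 1.504 to 2.16), and Cry1, a cryptochrome repressor, at 26.3 and 6.33 (log2 2.04, 1.61 to 2.53). Per3 was at 55.6 and 26.0 CPM (log2 1.10) and Cry2 at 25.9 and 16.3 (log2 0.67). Of the 3 activators, 2 were lower: Arntl, and Npas2 with 2 UMIs at ZT16 and 32 at ZT4 (log2 -4.01, -7.42 to -2.34). Npas2 kept at most 3 UMIs in either library when free RNA was subtracted at the scale of the mature muscle genes. Free RNA could not be measured from empty droplets. Its stand-in was the summed profile of all kept barcodes of a library, capillary ones included, so the subtraction also takes out capillary transcripts. Clock, the partner of ARNTL, was at 44.8 and 51.0 CPM (log2 -0.19, -0.39 to 0.01). The sixth of the Period and Cryptochrome list, Ciart, had 27 and 20 UMIs and a log2 interval from -0.77 to 1.03.

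Genes driven by the clock were mostly higher. Of 10 clock outputs, 6 were higher at ZT16 and 1 was lower, with a median log2 ratio of 0.69. Hlf, a transcription factor that binds D-boxes, stood at 28.8 CPM at ZT16 and 7.75 at ZT4 (log2 1.88, 1.49 to 2.32). Klf9, a zinc finger factor, was at 580 and 314 (log2 0.88), and Tef, a relative of Hlf, at 59.4 and 34.5 (log2 0.78). Dbp, the third factor of that family, stood apart: it was at 58.4 and 68.7 CPM in capillary barcodes (log2 -0.23, -0.41 to -0.06), while the log2 ratio in barcodes without endothelial genes was 1.64. Bcl6 was the lower gene, at 6.55 and 12.1 CPM. When the stand-in for free RNA was subtracted at the scale of the mature muscle genes, Tef turned, with a log2 ratio of -0.76. Hlf and Usp2 kept at most 3 UMIs in either library, which gives no ratio.

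Promoter windows of the named genes and of Gpihbp1, Npas2 and Dbp were read to show where clock and hormone motifs lie beside these differences. Other clock genes, such as Per3, Cry2 and Clock, were not looked up. RefSeq promoters (GRCm38.p6, from 250 bases before to 50 after a start) were found for 21 of 27 genes looked up, in 29 windows, and were searched on both strands for the E-box CACGTG, the D-box TTANGTAA, the REV-ERB and ROR element TAGGTCA and the glucocorticoid element, in which GNACA and TGTNC lie 3 bases apart. Of all 27025 genes in that table, 8.09% had a window with the E-box, 2.72% with the D-box, 2.97% with the REV-ERB and ROR element and 0.537% with the glucocorticoid element. Among the 21 genes with a window, 3 had an E-box, 0 a D-box, 1 the REV-ERB and ROR element and 1 the glucocorticoid element. Per2, Lpl, Angptl4, Gpihbp1, 9930014A18Rik and Gm13889 had no window and so were not searched. The windows with a match are shown with the match in capitals. Per1 (chr11:69098699-69098998, plus strand) had its E-box 166 bases before the start, Cry1 (chr10:85185005-85185304, minus strand) 60 bases before it and Adh1 (chr3:138277335-138277634, plus strand) 4 bases after it. Arntl (chr7:113207261-113207560, plus strand) held the REV-ERB and ROR element 30 bases after the start, and Map3k6 (chr4:133240568-133240867, plus strand) held the glucocorticoid element 181 bases before it. A match describes these letters and does not show binding.
Per1: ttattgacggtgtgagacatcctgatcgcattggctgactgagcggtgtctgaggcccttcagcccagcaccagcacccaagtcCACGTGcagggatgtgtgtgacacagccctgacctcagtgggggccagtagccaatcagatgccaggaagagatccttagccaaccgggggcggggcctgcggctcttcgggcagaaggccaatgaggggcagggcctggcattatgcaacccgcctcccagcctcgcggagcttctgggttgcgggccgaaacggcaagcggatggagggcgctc
Cry1: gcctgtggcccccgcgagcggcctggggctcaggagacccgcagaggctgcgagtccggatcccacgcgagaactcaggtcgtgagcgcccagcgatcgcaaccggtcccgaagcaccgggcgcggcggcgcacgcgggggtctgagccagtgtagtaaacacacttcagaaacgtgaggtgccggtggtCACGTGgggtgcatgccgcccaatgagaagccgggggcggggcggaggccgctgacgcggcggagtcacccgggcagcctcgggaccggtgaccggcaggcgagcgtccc
Adh1: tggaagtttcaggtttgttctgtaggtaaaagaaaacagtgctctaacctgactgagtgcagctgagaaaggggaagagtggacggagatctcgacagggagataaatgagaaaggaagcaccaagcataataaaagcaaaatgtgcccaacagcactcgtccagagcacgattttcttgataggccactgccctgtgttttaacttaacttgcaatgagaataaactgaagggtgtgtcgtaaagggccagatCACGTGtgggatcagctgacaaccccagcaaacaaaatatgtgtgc
Arntl: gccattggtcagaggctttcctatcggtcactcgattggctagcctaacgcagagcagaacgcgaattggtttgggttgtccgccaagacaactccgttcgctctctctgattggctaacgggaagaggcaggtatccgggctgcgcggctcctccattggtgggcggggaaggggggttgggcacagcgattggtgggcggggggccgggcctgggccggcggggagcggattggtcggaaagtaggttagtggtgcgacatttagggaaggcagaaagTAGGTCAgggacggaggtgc
Map3k6: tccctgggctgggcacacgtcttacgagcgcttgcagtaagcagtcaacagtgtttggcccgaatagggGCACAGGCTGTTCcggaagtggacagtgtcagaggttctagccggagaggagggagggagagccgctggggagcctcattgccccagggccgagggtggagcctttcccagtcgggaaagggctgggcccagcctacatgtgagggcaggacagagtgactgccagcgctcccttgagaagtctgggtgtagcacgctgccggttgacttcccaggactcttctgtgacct

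Lpl, the gene of lipoprotein lipase (chr8:68880491-68907448, plus strand), had the largest count among the named genes. It stood at 2573 CPM at ZT16 and 542 at ZT4 in capillary barcodes, a log2 ratio of 2.25 (2.20 to 2.30). In barcodes without endothelial genes it ran the other way, at 478 and 780 CPM (log2 -0.71). The share of capillary barcodes with an Lpl UMI was 96.7% at ZT16 and 62.9% at ZT4. In barcodes without endothelial genes, which were deeper (median 6244 and 6563.5 UMIs), it was 50.6% and 61.6%. After thinning to 1000 UMIs, which left out 91 capillary barcodes at ZT16 and 90 at ZT4, these shares were 86.1% and 35.6% in capillary barcodes against 23.01% and 33.6%. The ZT4 share in capillary barcodes was therefore close to that of barcodes without endothelial genes, and the ZT16 share stood above it. A capillary barcode held a median of 9 Lpl UMIs at ZT16 and 1 at ZT4.

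The rest of the lipid uptake pathway differed less. Of 26 measured genes of the list, 2 were higher, Lpl and the gate gene Gpihbp1, and 2 lower, with a median log2 ratio of -0.02 (0.08 with median scaling). Cd36, the fatty acid transporter, stood at 1278 CPM at ZT16 and 1425 at ZT4 (log2 -0.16), and Fabp4 at 15503 and 19158 (log2 -0.31). Tcf15, which with MEOX2 drives fatty acid transport genes in heart endothelium, was at 1425 and 1341 (log2 0.09). Angptl4, a secreted inhibitor of lipoprotein lipase, was lower, with 41 UMIs at ZT16 and 135 at ZT4 or 4.26 and 17.4 CPM (log2 -2.02, -2.57 to -1.52). In barcodes without endothelial genes Angptl4 was at 1.40 and 17.8 CPM (log2 -3.66). The part of other cell types in its capillary values was not tested. Gpihbp1 itself stood at 2966 and 1955 CPM.

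Other capillary markers were mostly level. Of the 16 genes of the capillary list, 3 were higher at ZT16 and none was lower, with a median log2 ratio of -0.10. Timp4 (chr6:115241892-115252205, minus strand) stood at 2279 CPM at ZT16 and 824 at ZT4 (log2 1.47, 1.43 to 1.51). Slc9a3r2, a scaffold of membrane proteins, was at 1319 and 749 (log2 0.82), and Sgk1, a kinase that responds to corticosteroids, at 678 and 386 (log2 0.81). Aqp1 lay just under the fold limit, at 5423 and 3674 CPM (log2 0.56, 0.54 to 0.58), and was past it with median scaling (log2 0.67). Car4, the carbonic anhydrase of the capillary lumen, was at 312 and 311 CPM (log2 0.00), and Meox2 at 246 and 281 (log2 -0.19).

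Several genes that respond to glucocorticoids were higher. Of 17 measured, 7 were higher at ZT16 and 1, Angptl4, was lower, with a median log2 ratio of 0.23. Tsc22d3, which encodes the glucocorticoid-induced leucine zipper (chrX:140539528-140600659, minus strand), stood at 421 CPM at ZT16 and 127 at ZT4 (log2 1.72, 1.62 to 1.83). Fkbp5, a co-chaperone of the glucocorticoid receptor, was at 13.9 and 4.39 (log2 1.65, 1.11 to 2.25), and kept at most 3 UMIs in either library when free RNA was subtracted at the muscle scale. Zbtb16, a zinc finger factor, was at 17.3 and 5.68 (log2 1.59). Per1, counted in this list too, and Klf9 were named above. Cdkn1a, the cell cycle inhibitor p21, was at 379 and 235 (log2 0.69, 0.61 to 0.77), while its log2 ratio in barcodes without endothelial genes was -0.64.

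Klf2, Klf4, Thbd and Edn1 were higher at ZT16, while the median of their list was not. Klf2, a factor induced by laminar flow, stood at 3598 CPM at ZT16 and 1654 at ZT4 (log2 1.12, 1.09 to 1.15), and Klf4, its relative, at 1099 and 642 (log2 0.77). In barcodes without endothelial genes both had log2 ratios below 0, at -0.37 and -0.33. Thbd, the anticoagulant receptor thrombomodulin, was at 227 and 126 (log2 0.84), and Edn1, the gene of the vasoconstrictor endothelin, at 31.2 and 9.94 (log2 1.64, 1.28 to 2.03). Of the 23 flow and vasoactive genes, 5 were higher and 3 lower, with a median log2 ratio of 0.00. The lower ones were Ptgs2 with 46 and 105 UMIs, Nostrin with 52 and 68, and Ednrb, an endothelin receptor, at 107 and 163 CPM (log2 -0.61). Ednrb was within the limit with median scaling (log2 -0.50). Nos3, the endothelial nitric oxide synthase, was at 73.3 and 84.3 CPM (log2 -0.20).

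Of 20 Notch and BMP genes, 4 were higher and 1 lower, with a median log2 ratio of 0.35. Id1, a target of BMP receptors, stood at 1275 CPM at ZT16 and 528 at ZT4 (log2 1.27, 1.22 to 1.32), and Id3 at 1830 and 1053 (log2 0.80). Hey1, a target of Notch, was at 54.9 and 29.96 (log2 0.87), and Notch4, an endothelial Notch receptor, at 75.4 and 44.9 (log2 0.74). Tmem100 was lower, with 85 and 108 UMIs. With median scaling 8 of these 20 genes were higher and none lower.

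The junction gene Cldn5 was the lower named gene with the largest count. Cldn5, the claudin of endothelial tight junctions (chr16:18776847-18778262, plus strand), stood at 391 CPM at ZT16 and 1425 at ZT4, a log2 ratio of -1.87 (-1.92 to -1.81). A Cldn5 UMI was found in 53.2% and 86.9% of capillary barcodes, against 1.03% and 2.19% of barcodes without endothelial genes. After thinning, the capillary shares were 26.8% and 67.9%. Both libraries thus held it far above the level of barcodes without endothelial genes. The rest of the list was mostly within the limit: of 21 junction and caveola genes, 1 was higher (Marveld2, 26 and 11 UMIs) and 2 were lower, with a median log2 ratio of -0.01 (0.09 with median scaling). The other lower one was Jam3, a junctional adhesion molecule, at 96.7 and 158 CPM (log2 -0.71). The caveola genes Cav1, Cav2 and Cavin1 were within the limit, at log2 ratios of -0.01, 0.14 and 0.19.

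Angiogenic receptors and ligands were level or lower. Of 16 VEGF, Tie and apelin genes, none was higher and 5 were lower, with a median log2 ratio of -0.14. Aplnr, the apelin receptor, stood at 184 CPM at ZT16 and 382 at ZT4 (log2 -1.05, -1.14 to -0.97). Esm1, a marker of angiogenic tip cells, was at 7.07 and 20.8 (log2 -1.55), and Vegfc, a ligand of VEGFR3, at 7.28 and 20.3 (log2 -1.47). The fourth was Angpt1, and the fifth was Kdr, VEGFR2, a gene of the gate, whose value describes the chosen members. Flt1, VEGFR1, was at 1462 and 993 (log2 0.56), and reached 0.66 with median scaling.

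In the basement membrane list, 2 of 20 genes were higher at ZT16 and 6 lower, with a median log2 ratio of -0.13. Timp3, an inhibitor bound to matrix, stood at 1244 CPM at ZT16 and 597 at ZT4 (log2 1.06, 1.01 to 1.11), and Timp4 was the other higher gene. The collagen IV chains ran the other way, with Col4a1 at 1076 and 1895 (log2 -0.82, -0.85 to -0.78) and Col4a2 at 631 and 1119 (log2 -0.83). Col15a1, a collagen of the basement membrane zone, was at 112 and 230 (log2 -1.04). Mmp14, Lamb1 and Timp2 were the other lower genes. Fibro-adipogenic genes, which also make matrix, were lower in the same barcodes: 5 of 8 were lower, with a median log2 ratio of -0.62, which was 0.36 with doublets left out. Their part in the collagen values was not tested. In barcodes without endothelial genes the log2 ratio of Col4a1 was -0.10 and that of Col4a2 -0.10.

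**Figure D2:**
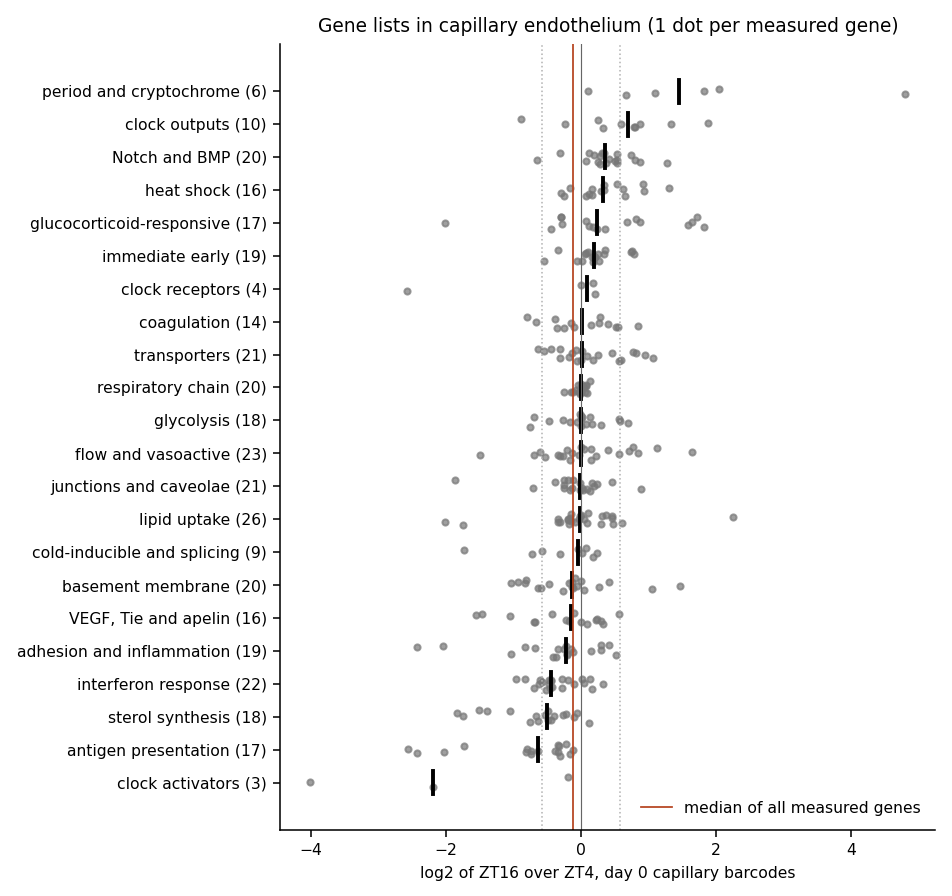
Log2 ratio of ZT16 over ZT4 in day 0 capillary barcodes for each measured gene of 22 lists (dots), with the list median (black bar), the median of all measured genes at -0.12 (red line) and 1.5-fold either way (dotted lines). Medians ran from -2.19 for the clock activators to 1.46 for the Period and Cryptochrome list, which includes Ciart, and the respiratory chain genes all lay within the dotted lines.

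Antigen presentation genes held more lower than higher members. Of 17 antigen presentation genes, none was higher and 9 were lower, with a median log2 ratio of -0.63. Psmb9, an immunoproteasome subunit, stood at 69.0 CPM at ZT16 and 115 at ZT4 (log2 -0.74), and Tap1, a peptide transporter, at 22.5 and 39.1 (log2 -0.80). The class I genes themselves differed less, with H2-D1 at 1232 and 1558 (log2 -0.34) and B2m at 952 and 1111 (log2 -0.22). The class II genes differed most: H2-Ab1 was at 9.67 and 57.3 (log2 -2.56) and Cd74, the invariant chain, at 33.2 and 180 (log2 -2.44). At least 3 class II UMIs were found in 3 capillary barcodes at ZT16 and 18 at ZT4. The most loaded 1% of barcodes held 77.4% of the H2-Ab1 UMIs at ZT16 and 83.3% at ZT4, and macrophage genes were at 106 and 164 CPM in the capillary barcodes. After free RNA was subtracted at the muscle scale, H2-Ab1 and Cd74 kept at most 3 UMIs in either library. Whether leukocyte transcripts make up the class II values was not tested.

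Of 22 interferon response genes, none was higher and 5 were lower, with a median log2 ratio of -0.44. Bst2, an antiviral membrane protein, stood at 527 CPM at ZT16 and 801 at ZT4 (log2 -0.60, -0.66 to -0.55), and Rtp4 at 48.0 and 93.5 (log2 -0.96). Oasl2 was at 21.7 and 38.6 (log2 -0.83), and Irf7 was lower too. With median scaling Bst2 was within the limit, at a log2 ratio of -0.50, and 3 of 22 were lower. Of 19 adhesion and inflammation genes, 5 were lower and none higher, including Cxcl9, an interferon-induced chemokine, at 83.1 and 171 (log2 -1.04), and Ccl2, a chemokine for monocytes, with 37 and 124 UMIs (log2 -2.04). Ccl2 kept at most 3 UMIs in either library after free RNA was subtracted at the muscle scale.

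Sterol synthesis genes held lower members only, and heat shock genes higher ones only, at the 1.5-fold limit. Of 18 sterol and fatty acid synthesis genes, 8 were lower and none higher, with a median log2 ratio of -0.51. Insig1, which holds back the sterol sensor, stood at 25.3 CPM at ZT16 and 52.2 at ZT4 (log2 -1.05), and Idi1, an enzyme of isoprenoid synthesis, at 9.25 and 24.4 (log2 -1.40). Hmgcs1, the synthase that precedes HMG-CoA reductase, was at 26.9 and 45.3 (log2 -0.75), and its ratio turned to 0.26 when free RNA was subtracted at the muscle scale. In barcodes without endothelial genes, Insig1, Idi1 and Hmgcs1 had log2 ratios of -1.46, -1.47 and -1.10.

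Of 16 heat shock genes, 5 were higher and none lower, with a median log2 ratio of 0.32. Hspa8, the constitutive HSC70 chaperone, stood at 2799 CPM at ZT16 and 1480 at ZT4 (log2 0.92, 0.89 to 0.95), and Dnaja1, a co-chaperone, at 1064 and 556 (log2 0.93). Hspb1 was at 3452 and 2248 (log2 0.62), Hsph1 at 41.2 and 16.5 (log2 1.31) and Hsp90aa1 at 471 and 298 (log2 0.66). Cold-inducible RNA binding proteins lay on the other side. Cirbp stood at 46.1 CPM at ZT16 and 153 at ZT4 (log2 -1.74, -1.897 to -1.58), and Rbm3 at 237 and 393 (log2 -0.73). These were the 2 lower genes of the 9 in the cold-inducible and splicing list, which had no higher one. Of 19 immediate early genes, which respond to dissociation of tissue among other stimuli, 3 were higher and none lower: Ier3 at 886 and 512, Atf3 at 533 and 315, and Maff at 17.4 and 10.3.

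Energy metabolism genes were mostly level. None of the 20 respiratory chain genes was higher or lower, and their median log2 ratio was 0.01. Of 18 glycolysis genes, 1 was higher and 2 lower, with a median of 0.00. Of 21 transporter genes, 5 were higher and 1 lower, with a median of 0.02, among them Slc43a3, a purine carrier, at 291 and 151 CPM (log2 0.94), and Slc2a1, the glucose transporter GLUT1, with 141 and 66 UMIs (log2 0.78). Of 14 coagulation genes, 1 was higher and 2 lower, with a median of 0.02, and of 18 endothelial genes outside the gate, 1, Cldn5, was lower and none higher. Cell division genes were scarce: 9 of 20 G2 and M phase genes were measured, 7 of them higher, but they summed to 40.4 CPM at ZT16 and 22.5 at ZT4, and only 5 and 2 capillary barcodes held at least 3 such UMIs. Their median log2 ratio was below 0 under the stricter rule (-1.53, 1 gene), as a mean of barcodes (-0.0601) and with free RNA subtracted at the muscle scale (-4.12, 3 genes). Barcodes without endothelial genes held 151 and 36.5 CPM of them. Of 19 S phase genes, none was higher and 1 lower.

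The remaining named genes fell outside these lists. Bcl2l1, the gene of the survival protein BCL-XL, stood at 98.8 CPM at ZT16 and 25.1 at ZT4 (log2 1.98, 1.76 to 2.21). Adh1, an alcohol dehydrogenase that also oxidises retinol, was at 349 and 111 (log2 1.65), and Fmo2, a flavin monooxygenase, at 431 and 151 (log2 1.52). Npy1r, a receptor of neuropeptide Y, was at 17.2 and 3.49 (log2 2.28, 1.71 to 2.94), and at 27.2 and 5.10 in barcodes without endothelial genes (log2 2.41). Npy1r UMIs were found in 69 capillary barcodes at ZT16, and the top 1% held 58.8% of them, a share that runs high for any gene with few UMIs. Map3k6, a stress kinase, was at 24.6 and 5.55 (log2 2.14). Myog, a differentiation factor of muscle cells that was not on the marker lists, entered through few barcodes: it had 116 UMIs at ZT16 and 1 at ZT4 (log2 5.97, 4.04 to 11.86), 111 of them in 3 barcodes.

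Among the lower ones, Trp53i11, a gene induced by p53, stood at 81.2 CPM at ZT16 and 320 at ZT4 (log2 -1.98, -2.10 to -1.86). Fgf9, a fibroblast growth factor, was at 18.5 and 52.6 (log2 -1.50), and Nepn, a small proteoglycan, at 5.61 and 24.7 (log2 -2.13). Pllp, the membrane protein plasmolipin, had 32 and 93 UMIs (log2 -1.84). Zc3h6, 9930014A18Rik and Gm13889 were lower too, at log2 ratios of -1.89, -2.12 and -1.52. Gm13889 was uneven, with 80 of its 430 UMIs at ZT4 in 3 barcodes. Its log2 ratio was 0.25 in arterial and 0.13 in venous barcodes.

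The same 24 genes were then read in other barcodes of the same 2 libraries. In arterial barcodes (371 at ZT16 and 293 at ZT4), 11 of the 11 higher genes with at least 30 UMIs and 10 of the 11 lower ones kept their direction. In venous barcodes (60 and 58), these were 6 of 6 and 4 of 5. In barcodes without endothelial genes, 11 of 12 and 9 of 11 kept it. Lpl was the exception among the higher genes, and Pllp and Fgf9 among the lower. Timp4 had log2 ratios of 1.30 in arterial and 1.24 in venous barcodes, and Cldn5 had -1.54 and -1.97. All of these classes came from the same libraries, so a difference between the libraries is shared by them. Whether any class differed from capillary barcodes in its ratio was not tested.

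**Figure D3:**
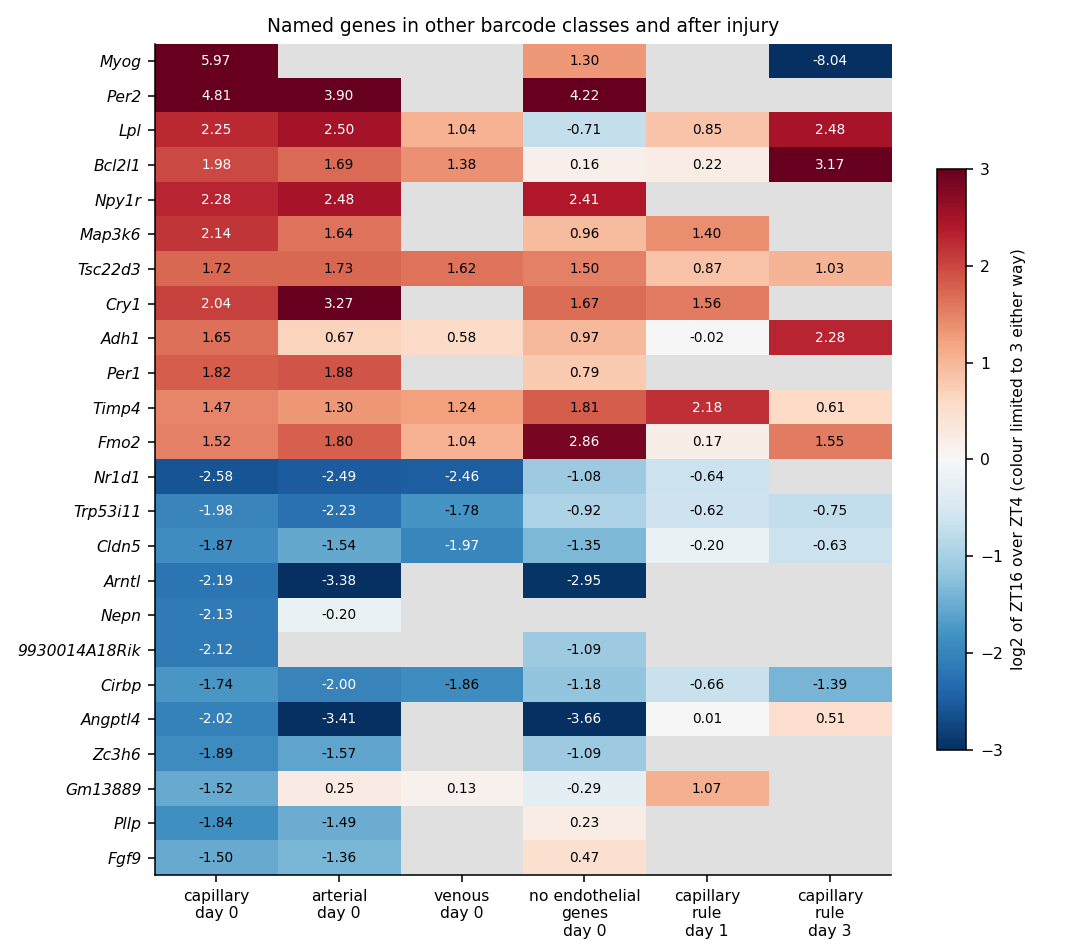
Log2 ratio of ZT16 over ZT4 (colour and number) for the 24 named genes in capillary, arterial and venous barcodes and barcodes without endothelial genes of day 0, and in barcodes meeting the capillary rule on days 1 and 3; grey marks fewer than 30 UMIs. Lpl was above 0 in every endothelial column and at -0.71 in barcodes without endothelial genes, while Tsc22d3 was above 0 in all 6 columns and Cirbp below 0 in all 6.

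Some genes were found in nearly every member and others in few. A capillary barcode held a median of 57 Fabp4 UMIs at ZT16 and 63 at ZT4, and Fabp4 was found in 99.8% of them in each library, against 18.02% and 17.5% of barcodes without endothelial genes. Aqp1 was found in 98.0% and 96.9% of capillary barcodes, against 8.79% and 5.83%, and the 1% of barcodes with most of it held 3.52% and 3.94% of its UMIs. Rgcc, a cell cycle regulator enriched in capillary endothelium, was found in 90.1% and 91.9%, and Car4 in 54.4% and 53.3%. At the other end, 75 barcodes at ZT16 and 62 at ZT4 carried Apln, the ligand of the apelin receptor, and the top 1% of capillary barcodes held 63.5% and 61.3% of its UMIs. Such a share runs high for any gene with few UMIs: at ZT16 Pllp had at most 1 UMI per barcode, and its share was 71.9%. It therefore does not show how uneven a scarce gene is. For Lpl, which had fewer UMIs at ZT4, the top 1% held 3.88% at ZT16 and 14.0% at ZT4.

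Venous barcodes had at least 3 UMIs of Vwf, Ackr1, Selp and Sele together, and arterial barcodes at least 2 of Sema3g, Gja5 and Stmn2. The classes were cut by measured values, so these comparisons describe them and carry no test. Against venous barcodes, 684 of 10578 measured genes (6.47%) were higher in capillary barcodes in both libraries and 1042 (9.85%) were lower, with medians of all genes of -0.04 at ZT16 and 0.00 at ZT4. Of the 16 capillary genes, 10 were higher in capillary barcodes and none lower. Rgcc stood at 1353 CPM in capillary barcodes and 230 in venous barcodes at ZT16, and at 1580 and 357 at ZT4 (log2 2.55 and 2.14). Car4 was at 312 in capillary and 41.0 in venous barcodes at ZT16, and at 311 and 65.4 at ZT4 (log2 2.89 and 2.22). Ednrb, Hey1 and Thbs4, which tendon cells also express, were among the 8 genes highest against venous barcodes. The other 3 were the haemoglobin genes Hbb-bt and Hbb-bs and the lymphatic chemokine Ccl21a, whose cell types are named above as present among the capillary barcodes.

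On the other side, Plvap, which forms the diaphragms of fenestrae and caveolae, was at 31.8 CPM in capillary and 726 in venous barcodes at ZT16, and at 41.5 and 654 at ZT4 (log2 -4.51 and -3.98). Lrg1, a secreted glycoprotein, was at 9.98 and 427 at ZT16, and at 6.07 and 309 at ZT4. Chp2, Slco2a1, Cysltr1 and Ccl2 were the next lower genes. Tagln, of smooth muscle, and Pi16, of fibroblasts, were also lower in capillary barcodes (log2 -4.25 and -3.63 at ZT16, -3.63 and -3.53 at ZT4). In the same direction, 6 of 8 fibro-adipogenic genes were lower in capillary than in venous barcodes, although the list's mean log2 ratio was 0.70 with the stricter venous rule. Genes of other cell types ran the other way, with 8 of 12 mature muscle genes, 4 of 5 muscle stem cell genes and 2 of 3 tenocyte genes higher in capillary barcodes. The part of other cell types in these values was not tested.

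Against arterial barcodes, 352 of 10787 measured genes (3.26%) were higher in capillary barcodes in both libraries, or 615 with the stricter arterial rule, and 461 (4.27%) were lower, with 3 of 16 capillary genes higher and 1, Btnl9, lower. Aqp1 stood at 5423 CPM in capillary and 1651 in arterial barcodes at ZT16, and at 3674 and 984 at ZT4 (log2 1.72 and 1.9). Timp4 was at 2279 and 1072 at ZT16, and at 824 and 435 at ZT4 (log2 1.09 and 0.92). Fmo2 was at 431 and 103 at ZT16, and at 151 and 29.4 at ZT4 (log2 2.06 and 2.34), and Trp53i11 had log2 ratios of 2.70 and 2.45. Btnl9 was at 25.9 in capillary and 96.6 in arterial barcodes at ZT16, and at 38.6 and 104 at ZT4. Cd36 and Fabp4 differed little, with log2 ratios of 0.21 and 0.10 for Cd36 and 0.15 and 0.09 for Fabp4.

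Cxcl9 and Adm, the gene of the vasodilator adrenomedullin, were also higher in capillary barcodes, with log2 ratios of 2.53 and 3.36 for Cxcl9 and 2.64 and 2.15 for Adm. Rarres1, Cadm1 and Thbs4 completed the 8 highest. Gkn3, a marker of arterial endothelium, had 0 UMIs in capillary barcodes of either library and 178 and 88 in arterial barcodes. Of 12 further arterial genes 11 were lower in capillary barcodes, and Fbln5, an elastic fibre protein, was at 15.0 and 268 CPM at ZT16 and 23.9 and 262 at ZT4. Bmx, Clu and Col8a1 were the others. Lyve1, Mmrn1 and Ccl21a, markers of lymphatic endothelium, were lower as well, but at least 3 lymphatic UMIs were held by 30 of 2301 capillary and 22 of 371 arterial barcodes at ZT16, and by 27 of 2040 and 13 of 293 at ZT4. With such barcodes left out of both classes, a limit set on these same genes, the mean log2 ratio over both libraries was 0.74 for Lyve1, 0.08 for Ccl21a and -2.07 for Mmrn1. Of 22 interferon genes, 9 were lower in capillary than in arterial barcodes and none higher.

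**Figure D4:**
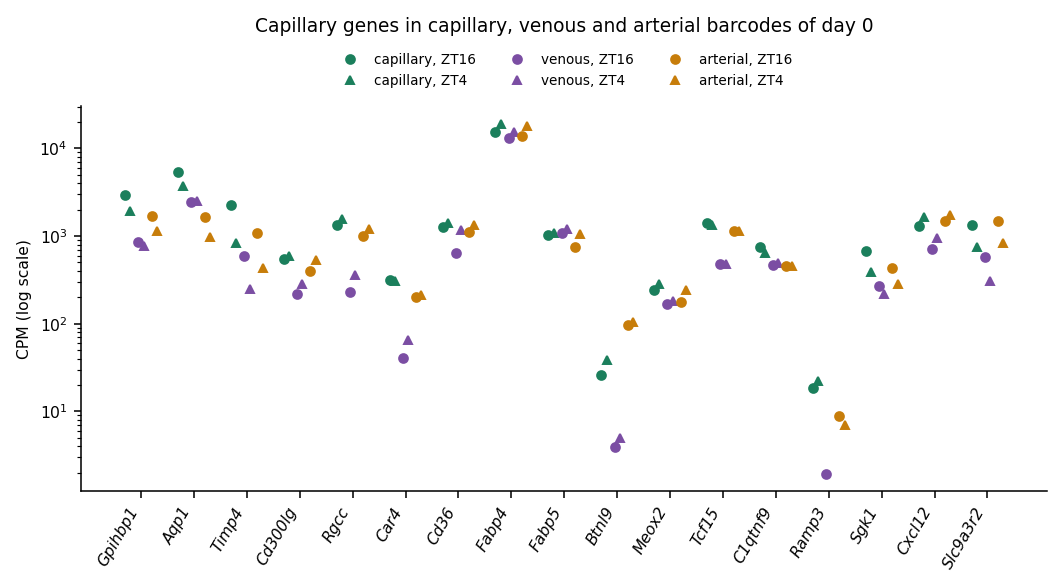
Levels (log axis, CPM) of 17 capillary genes in capillary, venous and arterial barcodes of day 0, with ZT16 as circles and ZT4 as triangles; Gpihbp1 is part of the capillary rule, and Ramp3 had 0 UMIs in venous barcodes at ZT4 and is not drawn there. The summed levels of Rgcc and Car4 were higher in capillary than in venous barcodes, and that of Aqp1 was higher in capillary than in arterial barcodes. Btnl9 was highest in arterial barcodes.

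The rule was also read on injured muscle. On day 1 it held for 245 barcodes at ZT16 (2.18% of kept barcodes) and 132 at ZT4 (1.20%), and on day 3 for 72 (0.88%) and 110 (1.16%), against 18.6% and 17.3% on day 0. A lower share cannot be told apart from more cells of other types entering the muscle. Against day 0, 1153 of 10643 measured genes (10.8%) were higher at both times on day 1 and 2377 (22.3%) lower. On day 3, 662 of 10542 (6.28%) were higher and 1181 (11.2%) lower. The mature muscle genes, at 20609 and 17542 CPM on day 0, were at 373 and 1660 on day 1 and at 1796 and 2017 on day 3, so transcripts of fibres in these barcodes moved with injury as well. The part of that background in the day contrasts was not tested.

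Most of the 16 capillary genes were lower on day 1. They summed to 33451 CPM on day 0, 13835 on day 1 and 23492 on day 3 at ZT16, and to 33741, 12026 and 26306 at ZT4. On day 1, 13 of 16 were lower at both times and none higher, and on day 3, 7 of 16 were lower. Aqp1 was at 5423, 1133 and 3058 CPM on days 0, 1 and 3 at ZT16, and at 3674, 1121 and 2069 at ZT4. Timp4 was at 2279, 204 and 447 at ZT16, and at 824, 44.3 and 293 at ZT4. Tcf15 was at 1425, 374 and 689 at ZT16, and at 1341, 270 and 784 at ZT4. Each of these was lowest on day 1 at both collection times.

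Apln was on the other side, at 17.7, 795 and 19.7 CPM on days 0, 1 and 3 at ZT16, and at 14.3, 901 and 57.4 at ZT4. The log2 ratio of day 1 over day 0 was 5.49 (5.26 to 5.73) at ZT16 and 5.97 (5.68 to 6.28) at ZT4. Lpl was at 2573, 370 and 1330 CPM at ZT16, and at 542, 205 and 238 at ZT4, so ZT16 stood above ZT4 on each day. The log2 ratio of ZT16 over ZT4 was 0.85 on day 1 and 2.48 on day 3. Cldn5 was at 391, 1172 and 722 CPM at ZT16, and at 1425, 1347 and 1123 at ZT4, and the log2 ratio between the times was -0.20 on day 1 and -0.63 on day 3. Klf2 was at 3598, 1269 and 2263 at ZT16, and at 1654, 922 and 1796 at ZT4. Cxcl9 was at 83.1, 9.38 and 424 CPM at ZT16, and at 171, 9.69 and 71.3 at ZT4.

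Of the 24 genes named on day 0, those with at least 30 UMIs kept their direction in 7 of 8 higher and 4 of 6 lower ones on day 1, and in 6 of 7 and 3 of 4 on day 3. Interferon genes were lower at both times in 14 of 21 on day 1 and higher in 3 of 21 on day 3. Of 16 heat shock genes 8 were higher and 3 lower at both times on day 1. Cell division genes summed to 382 CPM on day 3 at ZT16 and 461 at ZT4, against 40.4 and 22.5 on day 0, and all 4 measured G2 and M phase genes were higher at both times. S100a8, a neutrophil gene, was at 68.3 and 42.9 CPM on day 1 and at 0 on day 0 in both libraries. Whether dividing or neutrophil transcripts came from the members themselves was not tested.

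**Figure D5:**
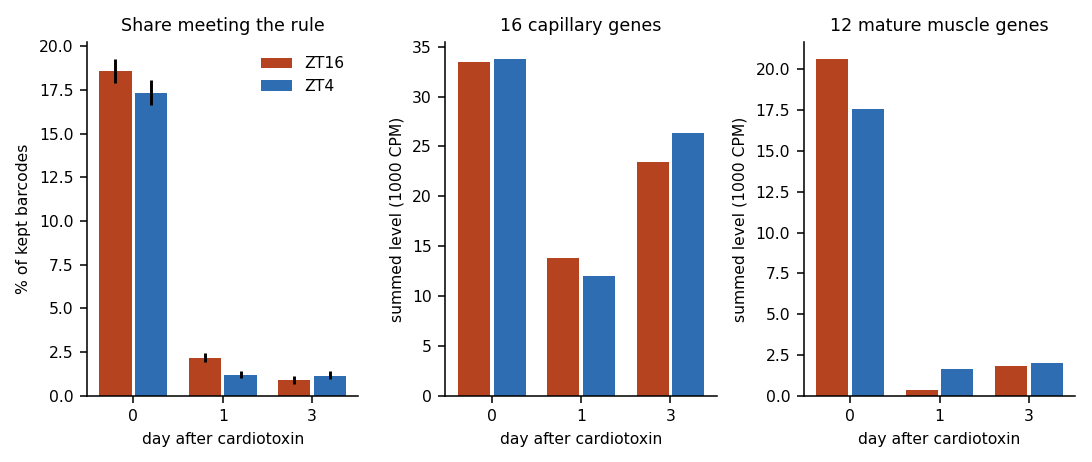
Share of kept barcodes that met the capillary rule (left, bars are exact 95% binomial intervals), summed level of 16 capillary genes (middle) and of 12 mature muscle genes (right) in those barcodes on days 0, 1 and 3, with ZT16 left of ZT4. The share was 18.6% and 17.3% on day 0 and at most 2.18% later, and the mature muscle genes were at most 2017 CPM after injury.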

How the data were processed

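The authors deposited UMI counts per gene and barcode, raw and without normalization; the matrices already held called barcodes. Cell Ranger 6.1.2 is named per the file headers, but Cell Ranger 1.0.0, with mm10, per the submitters' processing notes. The sources used here give no annotation release. Single libraries per group gave no test and no correlation between replicates, and doublets were kept. Python 3.11.15, numpy 2.4.6, pandas 2.3.3 and scipy 1.17.1 summed UMIs over barcodes and gave exact intervals, with 0.5 UMIs added in log2 ratios; the scripts were tested on simulated data. Gene positions came from GENCODE vM21 (GRCm38), which held 535 of 535 genes looked up; 1 listed gene had no row. The members and lists were chosen with earlier results of these data known.

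Genes named by size had at least 100 UMIs in both libraries together and at least 0.5 times their level in other kept barcodes, and were no gate gene, listed marker of another cell type, sex-linked, mitochondrial or ribosomal protein gene. The 12 with the highest lower bound and the 12 with the lowest upper bound of the log2 interval were taken. Against venous and arterial barcodes, the 8 genes each way with the bound farthest from 0 in the weaker library were taken. Other genes are examples from the lists, and 2 list members counted there are not reported here by name. In all 18 alternatives were planned and 3 added after the data were seen, with scanpy 1.11.5 for doublet scores and matplotlib 3.10.9 for plots.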

Additional observations from a re-analysis of the deposited data

Results flagged for a closer look

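Lpl was flagged because its log2 ratio of ZT16 over ZT4 was 2.25 in capillary barcodes of day 0 and -0.71 in barcodes without endothelial genes, opposite directions past 1.5-fold. Cdkn1a was flagged for the same reason, at 0.69 in capillary barcodes and -0.64 in barcodes without endothelial genes. Each value is from 1 library per time, and neither difference was tested.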

How the results depend on the processing

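The 24 named genes kept their direction and 1.5-fold difference in all 12 alternatives run on the contrast of ZT16 with ZT4. Some of these could not have changed this result. The limits of 100 UMIs and 1 UMI per gene leave each gene's ratio as it was, and median scaling shifts every log2 ratio by 0.10. The count of higher genes was 313 and of lower genes 825 with at least 100 UMIs per gene, 2163 and 4047 with no limit beyond 1 UMI, and 1057 and 2558 with free RNA subtracted, against 491 and 1432. That subtraction used the summed profile of all kept barcodes, capillary ones included, because free RNA itself was not measured. Scaled to bring the mature muscle genes to 0, it took out as many UMIs as 49.8% of the capillary total at ZT16 and 54.7% at ZT4. These percentages are therefore no measure of free RNA. The subtraction turned the log2 ratio of Tef to -0.76, of Hmgcs1 to 0.26 and of the G2 and M phase list to -4.12, with 3 genes left. It left at most 3 UMIs in both libraries, and so no ratio, for 1462 of 11920 genes, among them Npas2, Hlf, Usp2, Fkbp5, Cd74, the class II genes and Ccl2. Scaled to the macrophage genes instead it took 4.08% and 4.38% and turned none of these results. The G2 and M phase median was also -1.53 under the stricter rule, which left 1 gene, and -0.0601 as a mean of barcodes, and the fibro-adipogenic median was 0.36 with doublets left out. With median scaling Fabp5 and the medians of the lipid uptake, junction and caveola, and cold-inducible lists changed sign, to 0.01, 0.08, 0.09 and 0.07, values near 0 on both scales. A result is said to move when it left its main counting interval or, for counts, changed more than 1.5-fold. In the counts that follow, a result turned only if its main value was past 1.5-fold and its sign changed. Smaller values that changed sign are counted as moved or left. Free RNA subtraction at the muscle scale moved 82 results, turned 3 and left 44. Median scaling moved 54 and left 90. Leaving out doublets moved 42, turned 1 and left 102, and means of barcodes moved 33, turned 1 and left 110. Thinning moved 77 and left 173, vessel comparisons included, and each other alternative moved at most 31.

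The log2 ratio of the capillary share was -0.00601 with endothelial barcodes as the total and -0.10 after thinning, against 0.10. Stricter venous and arterial rules gave 615 genes higher in capillary than in arterial barcodes, against 352, and a mean fibro-adipogenic log2 ratio of 0.70 over venous barcodes. With barcodes of at least 3 lymphatic UMIs left out of both classes, a limit on the genes measured, the mean log2 ratio over arterial barcodes was 0.38 for the lymphatic list, 0.74 for Lyve1 and 0.0842 for Ccl21a, and over venous barcodes -0.34 for the list and -2.80 for Ccl21a. The causes of these shifts were not tested, apart from those that the barcodes left out show. The limit on mature muscle UMIs was not run, because it left 3 capillary barcodes at ZT16 and 6 at ZT4; the 1151 and 1020 barcodes with the smaller muscle share were used in its place. This, the macrophage scale and the lymphatic limit were chosen after seeing the data. No paired analysis was possible because each group is 1 library and the labels carry no replicate numbers. Genes with few UMIs, such as Npas2, Sqle and Pllp, are limited by depth.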
